A study of Mus musculus with 24 samples.

Results

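The contacts of the wild-type Oct4 allele on chromosome 17 were compared between day 3 and day 0 in the mouse embryonic stem cell line OCF2ΔOCT4/SOX2, here called the OctSox line. The comparison takes the 4 libraries of this line and viewpoint out of 24 in the series, 2 at day 3 and 2 at day 0. The other line of the series, OCF2ΔYY1, here called the YY1 line, was assayed at the same viewpoint and days. It serves only to show where the OctSox line differs. Other libraries of each line have a viewpoint labelled as mutant on a different chromosome, named after OctSox or YY1. The labels used here do not say which sequence was mutated, so the line names are not read as loss of those genes. Any effect of the mutant site on the contacts below was not tested. All libraries came from cells of strain C57Bl/6 x 129/Sv at passage 7. Replicates are called biological in the labels, without a word on separate cultures, so p-values measure the spread between these libraries. Day 3 and day 0 differ by a treatment that the labels used here do not name, and the series title speaks of the onset of differentiation. No expression was measured, so the labelled cell type was not checked against marker genes, and a shift in contacts within each cell cannot be told apart from a shift in the mix of cells.

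Oct4 is the product of Pou5f1, a transcription factor that keeps embryonic stem cells pluripotent and is switched off as they differentiate. Its gene lies in the major histocompatibility complex region of chromosome 17. In the order of genes given by RefSeq for GRCm38.p6, Tcf19, Cchcr1, Psors1c2 and Cdsn follow it on the side of higher coordinates, and Gm32362, H2-Q10, H2-Q7 and H2-Q6 precede it on the other side. Tcf19 is linked to the cell cycle, Cdsn encodes corneodesmosin of the outer skin layer, and the H2-Q genes encode nonclassical class I histocompatibility proteins. In 4C sequencing, chromatin is fixed, cut with a restriction enzyme and ligated, and the fragments joined to a chosen viewpoint fragment are counted. Contacts normally fall steeply with distance along the chromosome, because near fragments of a polymer meet most often.

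The promoter of Pou5f1 is shown because the labels give this gene as the target of the viewpoint. The line below gives the 250 bases before its start from RefSeq (GRCm38.p6, chr17:35505782-35506031, plus strand), with a GC box, GGGCGG, and a nuclear receptor motif, AGGTCA, in capitals.
Pou5f1: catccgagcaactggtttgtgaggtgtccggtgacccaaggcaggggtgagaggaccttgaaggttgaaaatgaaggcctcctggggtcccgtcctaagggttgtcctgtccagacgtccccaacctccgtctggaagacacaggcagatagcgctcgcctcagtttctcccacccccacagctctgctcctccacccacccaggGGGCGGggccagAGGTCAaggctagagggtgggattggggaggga
Both motifs were searched on both strands and did not overlap. GGGCGG was found in 32.7% and AGGTCA in 14% of 32851 promoter windows of the same length. The HindIII site AAGCTT, at which the 4C fragments end, is not in this window and is in 6.22% of the others. These are descriptions of letters in another genome build than that of the counts. No gene was assigned to a fragment below, because the coordinates of the counts are in mm9.

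The OctSox libraries held 248077 and 18916 counts at day 3 and 406507 and 20387 at day 0, over 25150 HindIII fragments with a median length of 2618 bases. Outside the viewpoint fragment and 1 neighbour on either side, 160876 and 7976 counts remained at day 3, against 111908 and 18609 at day 0. Of the 25147 remaining fragments, 28.1% and 4.12% had at least 1 count at day 3, against 19.3% and 8.98% at day 0. A count of 0 allowed a share of up to 0.00186% and 0.0376% in the day 3 libraries, against 0.00268% and 0.0161% in the day 0 libraries. Replicate 2 of each day was thus much shallower than replicate 1. Intervals and floors cover counting error only, since reads made by PCR are not independent molecules. Shares below are percentages of the counts outside these 3 fragments unless said otherwise.

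The viewpoint fragment itself ran from 35633988 to 35641095 on chromosome 17 (mm9) and was the fragment with the highest pooled count. Of all counts it took 32.6% (95% Wilson interval 32.4 to 32.8) and 52.7% (52.0 to 53.4) at day 3, against 70.9% (70.8 to 71.1) and 8.58% (8.21 to 8.98) at day 0. The day 0 libraries enclosed the day 3 libraries. The neighbour on the side of lower coordinates, 35627532 to 35633981, held 0.688% and 0.396% of all counts at day 3, against 1.46% and 0.103% at day 0, with the same overlap.

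The neighbour on the side of higher coordinates behaved differently. This fragment, 35641102 to 35643148 and 2047 bases long, held 4615 and 889 counts at day 3, against 315 and 7 at day 0. As shares of all counts these were 1.86% (95% Wilson interval 1.81 to 1.91) and 4.7% (4.41 to 5.01) at day 3, against 0.0775% (0.0694 to 0.0865) and 0.0343% (0.0166 to 0.0709) at day 0. Its 2 day 3 values both exceeded its 2 day 0 values. Set against the viewpoint fragment of the same library, it held 5.71% and 8.91% of that fragment's counts at day 3, and 0.109% and 0.4% at day 0, again without overlap. The lower neighbour, scaled in the same way, held 2.11% and 0.752% at day 3 and 2.05% and 1.2% at day 0, which overlapped.

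With nothing left out, edgeR's quasi-likelihood test gave the higher neighbour a log2 fold change, day 3 over day 0, of 4.90 ± 1.57 (SE), which did not pass after Benjamini-Hochberg adjustment over 783 fragments (adjusted p = 0.705). DESeq2 gave it 5.48 ± 1.43 (SE) with an adjusted p of 0.0337, so the call depended on the tool. In the authors' deposited table of the same day comparison this fragment stood at 2.23 ± 0.56 (SE) on the log2 scale (adjusted p = 0.0107). It was the 1 entry of 141 in the authors' deposited table with an adjusted p under 0.05, and the adjusted p of all the others was 0.983. Entries of that table carry no names and were placed on fragments by number and mean signal, and their sign was turned, since they run day 0 over day 3. A fragment that adjoins a viewpoint may carry uncut or self-ligated DNA, and the part of such DNA in these values was not tested.

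**Figure D1:**
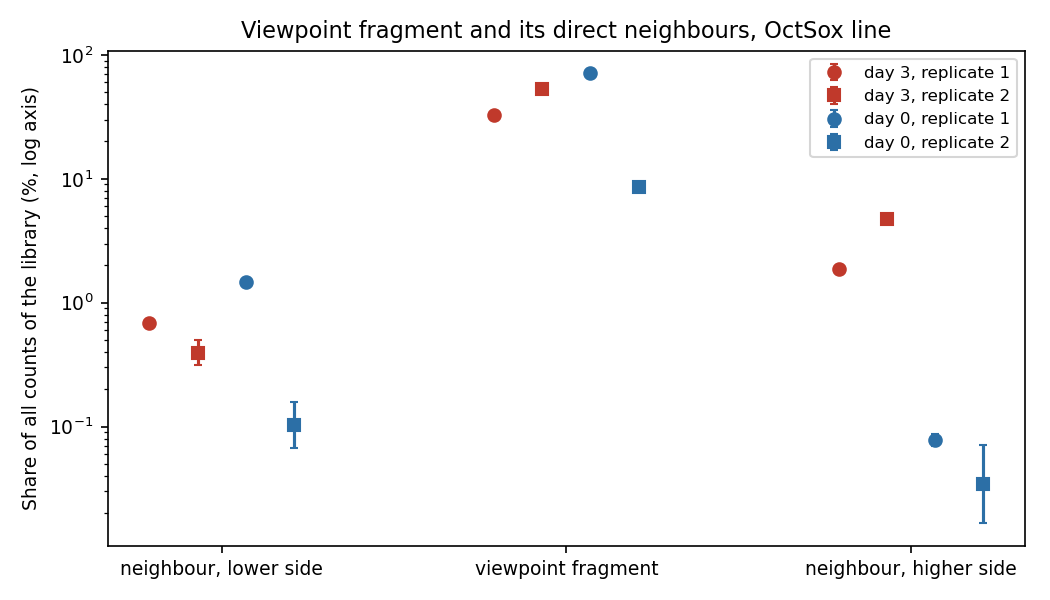
Share of all counts of a library (log axis, percent) held by the viewpoint fragment and its direct neighbours in the 4 OctSox libraries; bars are 95% Wilson intervals and are hidden by the symbol where narrow. At the higher neighbour the day 3 libraries, at 1.86% and 4.7%, lie above the day 0 libraries, at 0.0775% and 0.0343%, while at the other fragments the days overlap.

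The YY1 line showed the same order at this neighbour, with 10.4% and 9.04% of all counts at day 3 against 0.338% and 0.0543% at day 0. Scaled to the viewpoint fragment it held 76.9% and 19.2% at day 3 against 19.7% and 2.33% at day 0, which overlapped. EdgeR estimated its day effect in the YY1 line at 5.99 ± 0.43 (SE) on the log2 scale (adjusted p = 9.1e-39). DESeq2 gave 6.36 ± 1.02 (SE, adjusted p = 3.7e-07). The difference between the lines in this day effect, OctSox minus YY1, was -0.98 ± 1.38 (SE; adjusted p = 1 by edgeR's interaction term). For the viewpoint fragment the corresponding difference was -5.35 ± 1.30 (SE; edgeR adjusted p = 0.0434, DESeq2 adjusted p = 0.51). Its own log2 fold change was -1.14 ± 2.36 (SE) in the OctSox line and 4.33 ± 0.32 (SE) in the YY1 line. As the log2 ratio of mean shares of all counts it was 0.10 in the OctSox line, so its sign there turned with the measure.

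Next in line, the fragment from 35643155 to 35652106 on chromosome 17, which begins 2.06 kb from the viewpoint fragment, was the most contacted of all the remaining fragments. It held 10793 and 1132 counts at day 3, against 10434 and 596 at day 0. Its shares were 6.71% (95% Wilson interval 6.59 to 6.83) and 14.2% (13.4 to 15.0) at day 3, against 9.32% (9.15 to 9.5) and 3.2% (2.96 to 3.47) at day 0, and the days overlapped. Its log2 fold change by edgeR was 0.54 ± 1.06 (SE), adjusted p = 1.

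As a part of the counts within 0.1 Mb alone, the same fragment separated the days. It made up 33% and 47.9% of them at day 3, against 22.7% in each library at day 0, where the replicates differed by less than the rounding. The means were 40.5% ± 10.5 at day 3 and 22.7% ± 0.00325 at day 0 (SD, n = 2 each), a difference of 17.8 percentage points with an exact two-sided permutation p = 0.333, the smallest that 6 arrangements of 2 against 2 libraries allow. In the YY1 line it made up 26.6% and 40.8% at day 3, against 17.1% and 19.2% at day 0. Averaged over both lines the difference was 16.7 points (exact permutation p = 0.0556, the smallest that 36 arrangements within lines allow). Any fragment that lies higher at day 3 without overlap in both lines gets this p, so it is no support here. Within 0.1 Mb 30 fragments had a count in any library of either line. Of these, 1 lay higher at day 3 without overlap in both lines, and 0 lay lower in both. This 1 fragment was chosen after its values were seen, and the number that chance would give was not computed. The direction depends on the measure. In the authors' deposited table it had -0.42 ± 0.55 (SE, log2; adjusted p = 0.983), and with the trend over distance removed edgeR gave -0.74. The difference was 14.1 points as a part of the counts within 0.25 Mb and 10.1 points within 1 Mb. Without day 3 replicate 2 it was 10.4 points within 0.1 Mb.

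Of the other fragments detected within 0.1 Mb, measured in this way, 2 lay lower at day 3 without overlap in the OctSox line and 27 overlapped. As shares of the counts outside the viewpoint, the leading ones also overlapped. The next fragment, 35652113 to 35659414 at 11 kb, had shares of 2.63% and 4.15% at day 3, against 8.35% and 1.76% at day 0. The fragment 35671799 to 35674740, at 30.7 kb, had 2.04% and 2.32% at day 3, against 5.61% and 1.31% at day 0. The fragment 35666366 to 35668007, at 25.3 kb, had 2.05% and 0.84% at day 3, against 2.75% and 1.21% at day 0. The days overlapped at each of the 3. The last 2 of these fragments were the calls of the YY1 line, where edgeR called 2 of 716 (0.279%). Their log2 fold changes there were -1.42 ± 0.25 (SE, adjusted p = 2.0e-05) for 35666366 and -1.15 ± 0.26 (SE, adjusted p = 0.00294) for 35671799. In the OctSox line edgeR gave them -0.52 ± 1.06 and -0.84 ± 1.06 (SE, adjusted p = 1 each). The differences between the lines, 1.07 ± 1.05 and 0.43 ± 0.99 (SE), had an adjusted p of 1 each.

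The 12 fragments with the highest mean share over the 4 libraries all lay on the side of higher coordinates, within 174 kb. Together they held 20.9% and 29.3% of the counts at day 3, against 39.1% and 16.5% at day 0. Of the 12, 1 did not overlap between the days, the fragment 35730614 to 35736347 at 89.5 kb. It held 0.763% and 0.627% at day 3, against 1.45% and 0.94% at day 0, and edgeR put its log2 fold change at -0.87. Of all 731 fragments tested, 13.5% lay lower at day 3 without overlap and 9.71% higher, so 1 of 12 is near what fragments at large showed. The fragment 35801539 to 35814621, at 160 kb, varied widely between replicates, with 0.463% and 1.12% at day 3 against 0.0456% and 1.84% at day 0. Its neighbour 35814628 to 35822271, at 174 kb, held 1.35% and 0.589% at day 3, against 1.77% and 1.29% at day 0.

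**Figure D2:**
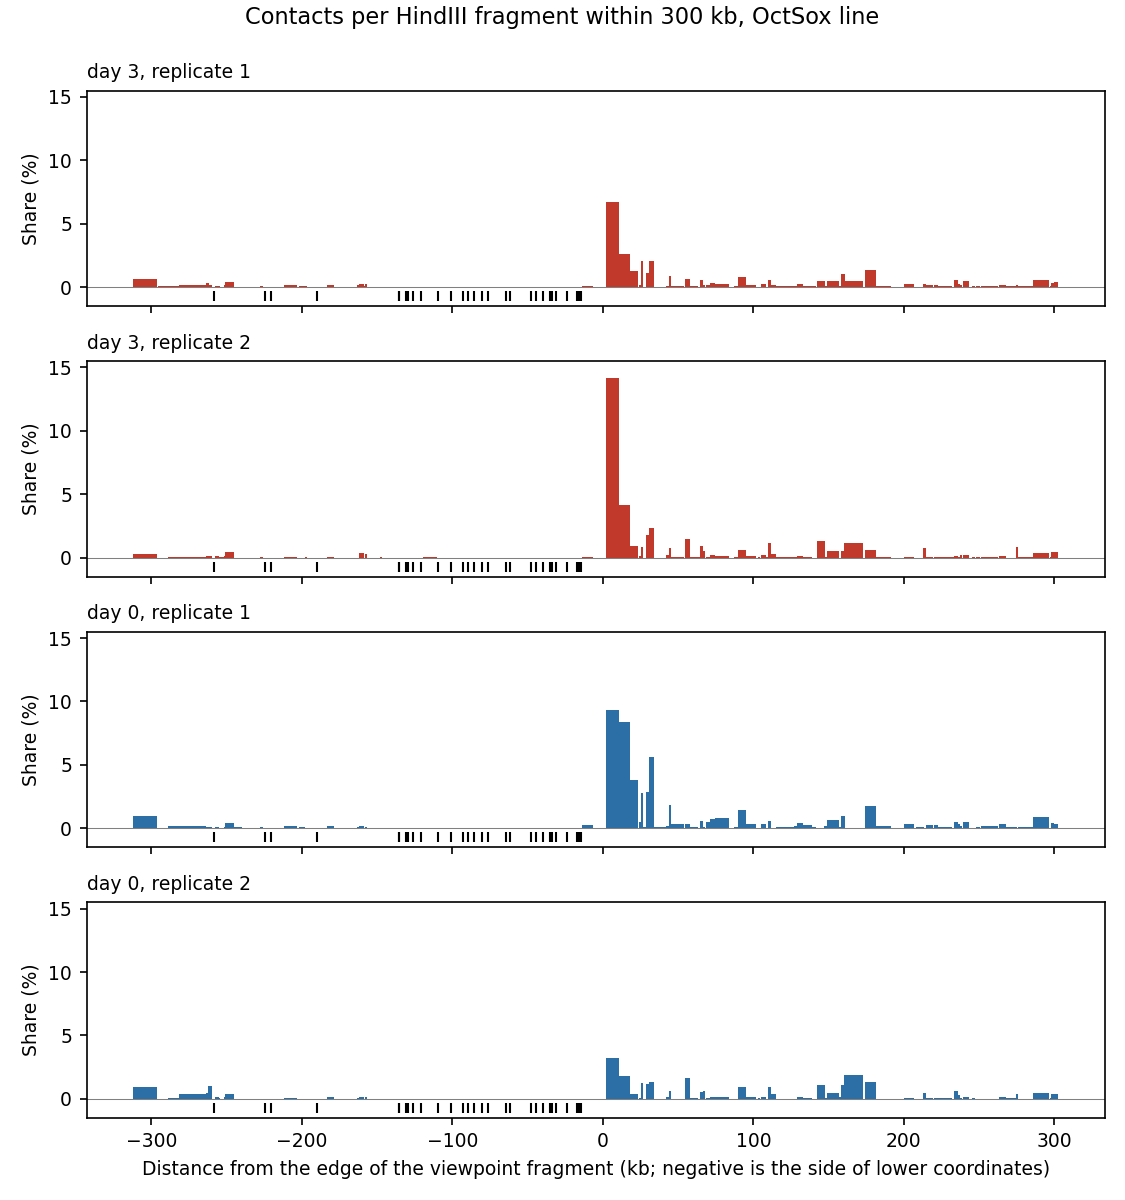
Share of counts (percent) of each HindIII fragment against its distance from the edge of the viewpoint fragment (kb), in 4 panels for the OctSox libraries, with the viewpoint and its direct neighbours left out. Bars span the fragments, widened to at least 1.5 kb, and black ticks mark fragments with 0 counts in all 8 wild-type Oct4 libraries. Within 0.1 Mb, 18 of the 24 fragments on the lower side and 0 of the 24 on the higher side have such a tick.

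Counts close to the viewpoint fell almost entirely on the side of higher coordinates, on both days. Most fragments of the other side had 0 counts in every library, so contact cannot be compared between the sides there. Within 0.1 Mb the side of higher coordinates held 20.2% and 29.6% of the counts at day 3, against 40.8% and 14.1% at day 0. The side of lower coordinates held 0.108% and 0.0251% at day 3, against 0.324% and 0.0215% at day 0. Each side has 24 fragments in this range. On the lower side 18 of them (75%) had 0 counts in all 8 wild-type Oct4 libraries of both lines, while on the higher side 0 of 24 did. The longest run of such fragments on the chromosome within 1 Mb of the viewpoint was 10 fragments spanning 36.6 kb, from 35583177 to 35619814, which begins 14.2 kb away on the lower side. The nearest fragment of that side, 35619821 to 35627525, was detected, with 69 and 2 counts at day 3 against 306 and 1 at day 0.

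The blank stretch was local. Within 0.25 Mb 28 of 63 fragments on the lower side were blank against 0 of 59 on the higher side, and within 1 Mb it was 39 of 203 (19.2%) against 49 of 236 (20.8%). Per detected fragment within 1 Mb, the lower side held 0.0705% and 0.0421% at day 3, against 0.0612% and 0.0833% at day 0. The higher side held 0.198% and 0.247% per detected fragment at day 3, against 0.308% and 0.189% at day 0, so the higher side led in each library. Of the detected fragments, 24 of 187 on the higher side and 6 of 164 on the lower lay within 0.1 Mb. The sides thus differ in distance as well, and the part of distance in this lead was not tested. Lengths recurred among the blank fragments: 5.88, 0.699, 8.09 and 1.49 kb from 35537982, and 5.89, 0.699, 8.1 and 1.49 kb from 35583177. Whether their sequence repeats, and whether they could be counted by the authors' mapping, was not tested. The lower side took 23.8% and 13% of the counts within 1 Mb at day 3, against 14.8% and 27.9% at day 0. The means were 18.4% ± 7.63 and 21.4% ± 9.26 (SD, n = 2 each), a difference of -2.96 points (exact permutation p = 0.667).

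Summed by distance, the band over 20 Mb separated the days and the 4 nearer bands did not. It held 19.6% and 22.7% of the counts at day 3, against 11.3% and 17% at day 0. The means were 21.1% ± 2.18 at day 3 and 14.2% ± 4.08 at day 0 (SD, n = 2 each), 6.98 percentage points apart (exact permutation p = 0.333, the smallest possible), and 4.09 points apart without day 0 replicate 1. With the viewpoint and its neighbours kept in the total, the share over 20 Mb differed by 1.81 points (exact permutation p = 1) and the days overlapped. Up to 0.1 Mb the libraries held 20.3% and 29.6% at day 3, against 41.2% and 14.1% at day 0, so the day 0 replicates stood on either side of day 3. At 0.1 to 1 Mb the shares were 28.3% and 23.5% at day 3, against 26.5% and 34.8% at day 0. The changes in the 4 nearer bands were -2.69, -4.8, -1.66 and 2.17 points, with exact permutation p-values between 0.667 and 1.

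**Figure D3:**
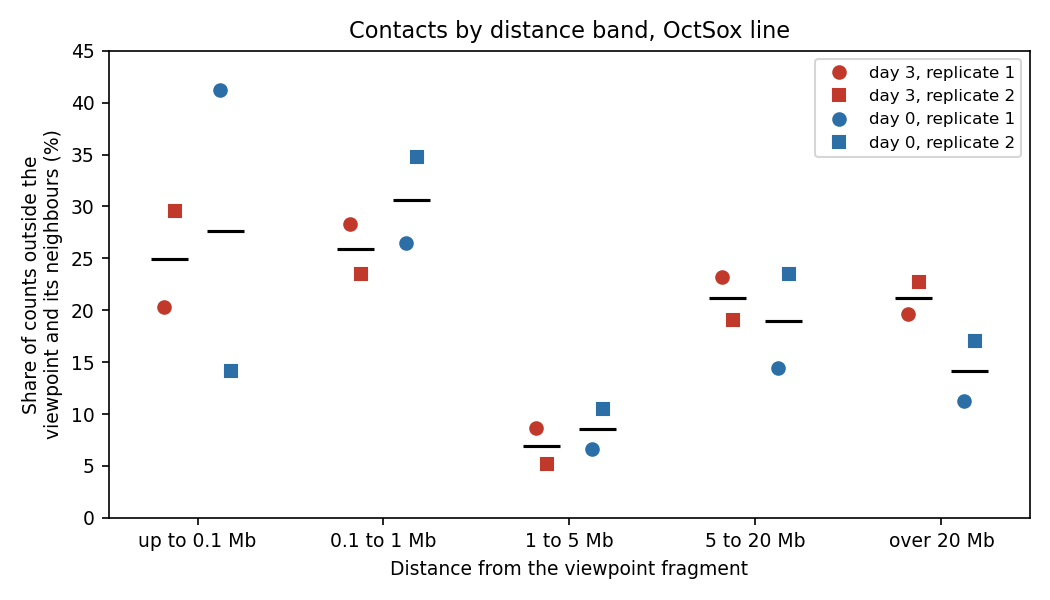
Share of counts outside the viewpoint and its direct neighbours (percent) in 5 bands of distance from the viewpoint fragment, for the 4 OctSox libraries, with black lines for the means of 2 libraries. Over 20 Mb the day 3 libraries, at 19.6% and 22.7%, lie above the day 0 libraries, at 11.3% and 17%; in the band up to 0.1 Mb the day 0 libraries, at 41.2% and 14.1%, enclose day 3.

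Counts of detected fragments gave a similar order only at equal depth. Thinned to 7976 counts, the depth of the shallowest library, the libraries were expected to hold 2486.9 and 1036.0 fragments with a count at day 3, against 1798.7 and 1639.9 at day 0. Of these, 38.6% and 42.4% lay over 20 Mb away at day 3, against 35.2% and 32.2% at day 0, again without overlap. Counting detected fragments in place of counts without thinning, the difference over 20 Mb was 6.16 points (exact permutation p = 0.667), with overlap.

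In the YY1 line the band over 20 Mb changed by 9.94 points, and the difference between the lines, OctSox minus YY1, was -2.96 points. For the 5 bands the exact permutation p-values of the difference between the lines ran from 0.722 to 1 (adjusted p = 1 for each over the 5). The smallest p that 36 arrangements within lines allow is 0.0556, so this test could not pass 0.05, and an equal change in both lines is not shown by it.

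Counts per listed fragment, blank ones included, fell sharply at about the same distance on both days. Between 320 and 640 kb a fragment held on average 0.089% and 0.0644% of the counts at day 3, against 0.069% and 0.107% at day 0. Between 640 and 1280 kb it held 0.0126% and 0.0102% at day 3, against 0.0105% and 0.0181% at day 0. This drop was seen in each of the 4 libraries and was the steepest between neighbouring distance bins from 20 kb to 20 Mb. The part of blank fragments in this drop was not tested. On log10 scales the slope of contact against distance over that range was -0.957 ± 0.0559 at day 3 and -1.01 ± 0.148 at day 0 (SD, n = 2 each), a difference of 0.05 (exact permutation p = 1).

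Tested 1 fragment at a time, no contact outside the viewpoint passed the threshold, but the test could call little. On simulated data edgeR's fragment test recovered 0% of the smaller and 1.52% of the larger planted changes among fragments tested. So 0 calls do not show that contacts stayed the same. Of 731 fragments edgeR called 0 (0%), and DESeq2 also 0. An unadjusted p under 0.05 was reached by 17 of them in edgeR (2.33%). Without day 3 replicate 1, and likewise without day 0 replicate 1, edgeR called 2. In edgeR's fit 320 had a positive and 411 a negative log2 fold change, with a median of -0.19. Close to the viewpoint negative values prevailed: up to 0.1 Mb 5 were positive and 19 negative with a median of -0.81, and at 0.1 to 1 Mb 50 were positive and 121 negative with a median of -0.44. At 5 to 20 Mb 157 were positive and 144 negative (median 0.07), and over 20 Mb 62 were positive and 47 negative (median 0.12). Without day 0 replicate 1, the library with the highest share close by, the fragment from 35652113 had 1.35 in place of -0.78 and that from 35671799 had 1.20 in place of -0.84.

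**Figure D4:**
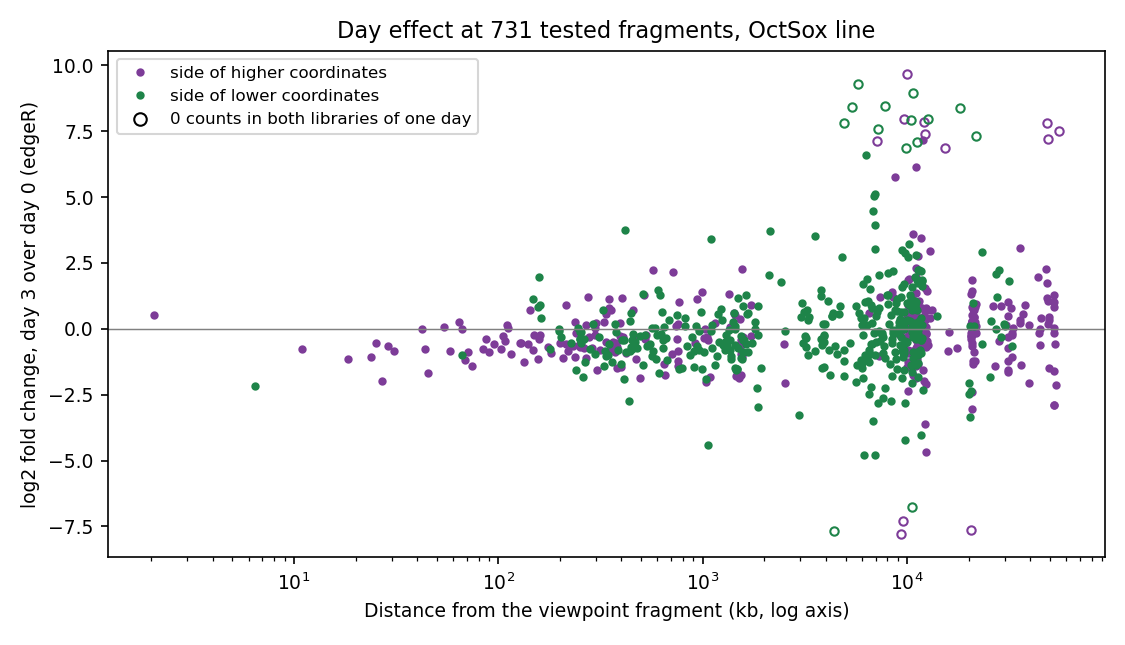
EdgeR log2 fold change, day 3 over day 0, of the 731 tested fragments against their distance from the viewpoint fragment (kb, log axis), coloured by side. Open circles are fragments with 0 counts in both libraries of a day, whose fitted values depend on the prior count; within 1 Mb most points lie below 0, and 0 fragments passed the adjusted threshold.

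The 17 fragments at an unadjusted p under 0.05 all had positive fold changes and all lay 5 to 20 Mb away. Of the 731 tested fragments 301 lay in this band. Among those, 16 had 0 counts in both day 0 libraries and 3 had 0 in both day 3 libraries. A fragment with 0 counts on 1 day passed the count filter through the other day alone, so its direction was fixed by the filter. The smallest p belonged to 45655977 to 45661452, 10 Mb away, with 71 and 23 counts at day 3 against 0 and 0 at day 0 (adjusted p = 1 by edgeR). Setting the day 0 group at the 3 counts that a pooled 0 allows, the rise was at least 24.2-fold. This bound covers counting error, and neither replicate spread nor the selection by the filter. In the YY1 line it had 12 and 0 counts at day 3 against 1 and 0 at day 0. The next, 29903490 to 29911953 at 5.72 Mb, had 31 and 19 counts at day 3 against 0 and 0 at day 0, at least 12.9-fold. In the YY1 line its shares were 0.0136% and 0% at day 3 against 0.00599% and 0.0197% at day 0, which overlapped. A count of 0 in YY1 day 3 replicate 2, with 7090 counts outside the viewpoint, allows a share of up to 0.0423%, so that library cannot place these fragments above or below day 0. The fragment 24980200 to 24981292, at 10.7 Mb, had 30 and 15 counts at day 3 against 0 and 0 at day 0, and in the YY1 line 0 and 0 at day 3 against 78 and 16 at day 0, shares of 0.0234% and 0.0262%. For this fragment the interaction of line and day had an adjusted p of 0.596 by edgeR.

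At the opposite end, the fragments with the smallest p among negative fold changes did not pass even unadjusted. The first was 25073006 to 25077936 at 10.6 Mb, with 0 and 0 counts at day 3 against 19 and 4 at day 0 (adjusted p = 1 by edgeR), at least 9.92-fold lower by the same bound. The second was 44937998 to 44942929 at 9.3 Mb, with 0 and 0 counts at day 3 against 27 and 11 at day 0, at least 16.4-fold lower. Both fragments passed the count filter through day 0 alone.

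Summed over windows of 100 kb, 1 of 627 was called by edgeR (0.159%), and 13 (2.07%) had an unadjusted p under 0.05. It ran from 50041328 to 50144744, 14.4 Mb away, with 13 and 128 counts at day 3 against 14 and 3 at day 0. EdgeR estimated 5.45 ± 1.11 (SE) on the log2 scale (adjusted p = 0.000622). All 128 counts of day 3 replicate 2 came from a single fragment, 50114727 to 50115330, which had 0 counts in each of the other 3 libraries. Without that library the window's log2 fold change was -1.20, and DESeq2 called 0 windows. EdgeR called 12 windows without day 3 replicate 1 and 0 without day 0 replicate 1. Every fit without a library leaves 1 library on 1 day, and that day's replicate spread is missing from it. Without day 0 replicate 2 the window from 35643155 to 35742597 next to the viewpoint had -1.45 on the log2 scale. With all 4 libraries this window had -0.66 ± 0.40 (SE). With the replicate number as a block edgeR called 0 windows, and the window from 50041328 had 2.57. The next window, from 7828688 to 7933722 at 27.7 Mb, had 16 and 51 counts at day 3 against 3 and 3 at day 0, and its 51 counts likewise lay in 1 fragment, 7844452 to 7846379.

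Among windows that did not overlap between the days, 19.8% of all tested were higher at day 3 and 8.45% lower. The window from 72247474 to 72341988, 36.6 Mb away, had 694 and 23 counts at day 3 against 56 and 0 at day 0, or 3.07 ± 1.12 (SE) on the log2 scale. The window from 87248399 to 87343317, 51.6 Mb away, had 74 and 48 counts at day 3 against 32 and 2 at day 0, with 3.39 ± 1.20 (SE). Neither passed the threshold. In the other direction, the window from 33732013 to 33828368 at 1.8 Mb had 453 and 7 counts at day 3 against 242 and 282 at day 0. Of the 282, 233 fell on a single fragment, 33796757 to 33802797, which had 11 and 0 counts at day 3 and 0 in day 0 replicate 1.

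Near fragments recurred more completely between replicates than far ones, and replicate 1 also detected a larger part of the near band. Over 20 Mb, 181 fragments were detected in both day 3 libraries, 5.51% of those of replicate 1 and 41.2% of those of replicate 2, where replicate 1 had a count in 22.5% of all fragments of the band. At day 0 it was 232, 11.2% of replicate 1 and 30.3% of replicate 2, where replicate 1 had a count in 14.1% of all fragments of the band. Up to 0.1 Mb, each of the 22 fragments of day 3 replicate 2 and each of the 25 of day 0 replicate 2 was also in replicate 1. There replicate 1 had a count in 62.5% of all fragments of the band on both days, so the bands differ in density of detection as well. Of the 25147 fragments outside the viewpoint and its neighbours, 284 were in all 4 libraries and 5889 in a single library. In both day 3 and no day 0 libraries were 177, and in both day 0 and no day 3 libraries 128. What depth alone would give was not computed.

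The most contacted fragment over 20 Mb was 84285455 to 84304319, 48.6 Mb away on the side of higher coordinates. It had 18 and 88 counts at day 3 against 31 and 170 at day 0, shares of 0.0112% and 1.1% against 0.0277% and 0.914%. In the YY1 line its shares were 0.0272% and 0.0987% at day 3 against 0.0297% and 0.217% at day 0. In both lines its share was higher in replicate 2 than in replicate 1 on both days, and the days overlapped. Over 20 Mb 22 fragments were in all 4 OctSox libraries, and 6 were in all 8 libraries of both lines. Another of these, 10185227 to 10192732 at 25.4 Mb on the lower side, had 10 and 5 counts at day 3 against 8 and 40 at day 0.

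The difference between the lines was tested fragment by fragment as well. On simulated data edgeR's interaction test recovered 0% of the planted changes of either size, so 0 calls do not show equal day effects. For the interaction of line and day edgeR called 0 of 1270 fragments (0%) and DESeq2 0. In edgeR 58 (4.57%) had an unadjusted p under 0.05, and without OctSox day 0 replicate 1 edgeR called 1. The smallest p belonged to 37698652 to 37699284, 2.06 Mb away, with 3 and 15 counts at day 3 against 0 and 0 at day 0 in the OctSox line, and 0 and 0 at day 3 against 76 and 43 at day 0 in the YY1 line (edgeR adjusted p = 0.596).

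Of the 141 fragments in the authors' deposited table, those with a median count of at least 40 apart from the viewpoint, 45 had a positive and 96 a negative log2 fold change, day 3 over day 0, with a median of -0.14. Apart from those touching the viewpoint, its values ran from -0.88 to 0.98. On the higher side within 100 kb, apart from the direct neighbour, 17 of 19 fragments in the authors' deposited table were lower at day 3. For some of the 17, among them 35643155 (1.26), the log2 ratio computed here from scaled counts was positive. The lower neighbour of the viewpoint had -1.2 ± 0.59 (SE) in the authors' deposited table, with an adjusted p of 0.983.

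**Figure D5:**
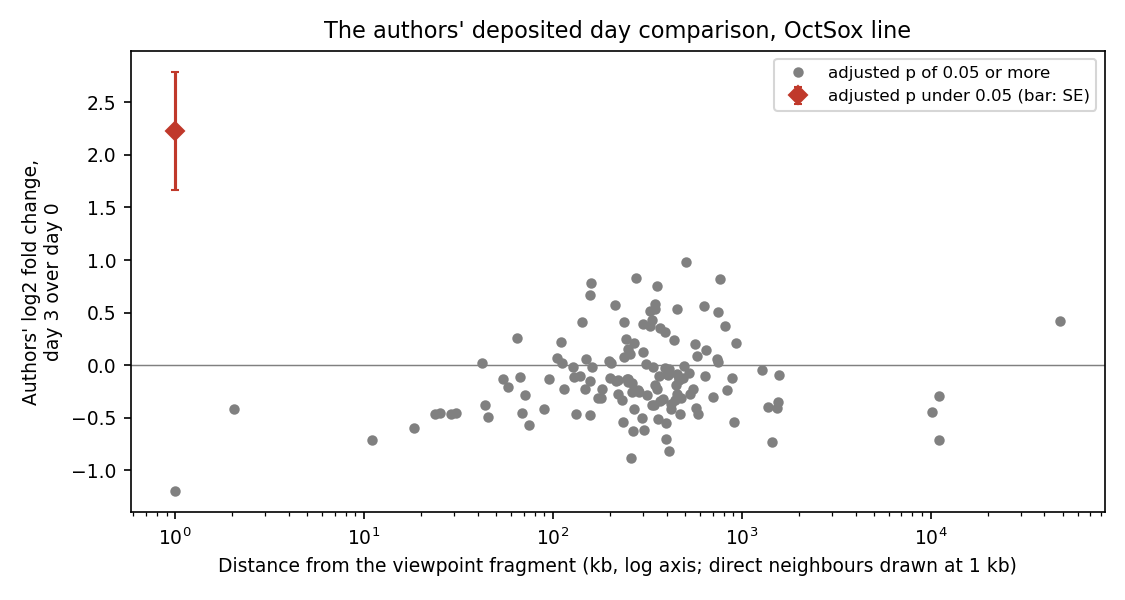
Log2 fold change, day 3 over day 0, of 141 fragments in the authors' deposited table against distance from the viewpoint fragment (kb, log axis; direct neighbours drawn at 1 kb). The red diamond, with its SE, is the higher neighbour at 2.23, the 1 entry with an adjusted p under 0.05; grey points are the others.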

How the data were processed

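4C libraries were made from fixed cells (formaldehyde at 2% for 10 min) cut with HindIII, per the labels' protocols. Reads were aligned with Bowtie to mm9, per the submitters' processing notes; the sources used here give neither versions nor the counting step. The authors deposited raw counts per fragment, placed here by row order on their list of fragments. Listed fragments are separated by the 6 bases of the HindIII site at 22183 places and by longer gaps at 2966. Per the file headers, the authors' deposited comparison holds a mean signal, a log2 fold change and its SE, a test score, and p-values before and after adjustment. The viewpoint was placed by the highest pooled count and left out with 1 fragment on either side.

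EdgeR 4.0.16 (R 4.3.3) was run on fragments and 100 kb windows that passed filterByExpr with a minimum count of 10 (TMM, glmQLFit, glmQLFTest, Benjamini-Hochberg at 0.05), without a replicate block. The printed SE is the log2 fold change over the square root of F. DESeq2 1.42.0 was an alternative. Shares and slopes were compared by exact two-sided permutation of libraries. Between OctSox day 3 and day 0, deviations of same-numbered libraries from their group means correlated at 0.0224 over 731 fragments. Over 1270 fragments the YY1 days gave 0.074, and the 2 lines gave 0.139 at day 3 and 0.0445 at day 0. On this basis the replicate numbers were not taken as pairs. Replicates differed by more than counting noise, if PCR reads are taken as independent (chi-square per degree of freedom 14 at day 3 and 89.2 at day 0), so none was treated as a repeat deposit. Named fragments were the viewpoint and its neighbours, the 12 with the highest mean share, the 3 highest per band over 1 Mb, the 8 with the smallest p in each direction, 5 windows each way, the 4 smallest interaction p-values, calls of the YY1 line and authors' entries with an adjusted p under 0.1. The members and lists were chosen with earlier results of these data known, and 10185227 after its values were seen. Tests were first tried on simulated data with planted 4-fold and 16-fold changes. On 100 kb windows edgeR recovered 6.49% and 48.8% of these. Shares were computed in Python 3.11.15 with pandas 2.3.3.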

Additional observations from a re-analysis of the deposited data

Results flagged for a closer look

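The day effect at the viewpoint fragment, 35633988 to 35641095, differed between the lines by -5.35 ± 1.30 on the log2 scale (SE, OctSox minus YY1), with an adjusted p of 0.0434 over 1118 fragments by edgeR's interaction term with nothing left out. Its share of all counts was 32.6% and 52.7% at day 3 against 70.9% and 8.58% at day 0 in the OctSox line, and 13.5% and 47% at day 3 against 1.71% and 2.33% at day 0 in the YY1 line. DESeq2 gave the same difference an adjusted p of 0.51. The part of undigested or self-ligated product in it was not tested.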

How the results depend on the processing

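The shallowest library had 7976 counts outside the viewpoint, and edgeR's common dispersion over fragments was 1.58. Of 191 recomputed counts, shares and differences, 129 counted as kept, 47 changed sign, 14 moved and 1 newly passed the threshold. Shares and differences counted as kept mostly on their sign alone, call counts when equal or nearly so, and detected fragments when within the SD between replicates. Of 534 recomputed values of named fragments and windows, 489 kept their direction and side of the threshold, 34 changed sign, 6 lost a call and 5 gained one. Most of these fragments and windows lay far from the threshold, so keeping its side says little. In both sets the cause of the others was not tested. The edgeR count of fragments ranged from 0 to 2 with 1 library left out, at 2 without day 3 replicate 1 or day 0 replicate 1, and was 0 otherwise. Windows ranged from 0 to 12, at 12 without day 3 replicate 1, and the count was 2 under RLE scaling and 0 under DESeq2, total counts, a minimum of 20, the distance trend removed, the replicate block or 500 kb windows. The called window 50041328 did not pass under DESeq2 (5.72), total counts (5.83), the trend removed (5.89) or the replicate block (2.57), and had -1.20 without day 3 replicate 2; the window 7828688 passed under RLE (5.40). The interaction count was 1 with nothing left out and ranged from 0 to 1 with a library left out, at 1 without day 0 replicate 1, where it was 35643155. The replicate block gave 0 fragment calls and 0 interaction calls.

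With nothing left out, with fragments in place of counts and with counts capped at 10, the band changes were 6.61, 0.411 and 1.07 points up to 0.1 Mb and -1.18, -5.43 and -5.16 at 5 to 20 Mb; with fragments and capped counts 0.1 to 1 Mb gave 1.21 and 0.888 and the slope -0.0603 and -0.0751. Leaving out 1 library gave -16.2 to 10.8 up to 0.1 Mb, -8.94 to -0.669 at 0.1 to 1 Mb, -3.58 to 0.262 at 1 to 5 Mb, -2.4 to 6.75 at 5 to 20 Mb and 4.09 to 9.86 over 20 Mb. It gave -9.51 to 3.58 for the lower side and -0.0548 to 0.155 for the slope.

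For the difference between lines, nothing left out gave -20.4 up to 0.1 Mb, 2.17 at 1 to 5 Mb and 1.16 over 20 Mb, and 3 fragments left out gave -1.07 up to 0.1 Mb. Fragments in place of counts gave -0.605, -2.9, -1.66 and 6.52 for up to 0.1, 0.1 to 1, 5 to 20 and over 20 Mb, and capped counts -0.988, -5.37 and 6.81 for up to 0.1, 0.1 to 1 and over 20 Mb. Leaving out 1 library gave -13.3 to 13.7, -1.4 to 6.87, -2.8 to 1.04, -3.66 to 5.48 and -5.84 to -0.0784 by band.

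At equal depth day 3 minus day 0 was 42.2 fragments (SD between replicates 730), 1261 without the shallowest library, and -683 to 768 with 1 library left out. The log2 ratio of mean shares was 0.10 for the viewpoint fragment, -0.61 over the other counts, -1.14 by edgeR, -0.60 by DESeq2 and -0.73 to 2.31 with a library left out. It was -1.42 to 2.40 for the lower neighbour and 5.06 to 6.58 for the higher, which DESeq2 called (5.48). The percent of near counts at 35643155, added after seeing the data, ranged from 10.4 to 25.3 points.

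Named fold changes turned with the replicate block for 35801539 (1.24), 63809433 (0.54) and 84285455 (-0.55), with the trend removed for 35643155 (-0.74), 35695529 (-0.61) and 84285455 (-0.02), with no filter for 35695529 (-0.03) and 84285455 (-0.24), and with nothing left out for 34521565 (-0.05), 35695529 (-0.12) and 84285455 (-0.05). With a library left out they ranged from -0.61 to 9.71 for 34521565, -0.32 to 2.05 for 35643155, -1.74 to 1.35 for 35652113, -2.15 to 1.93 for 35659421, -1.85 to 0.90 for 35666366, -1.44 to 0.73 for 35669786, -1.77 to 1.20 for 35671799, -1.57 to 0.88 for 35684940, -0.41 to 1.18 for 35695529, -1.48 to 0.10 for 35730614, -1.40 to 0.14 for 35798798, -0.90 to 3.61 for 35801539, -1.90 to 0.23 for 35814628, -6.37 to 9.14 for 63809433, -5.03 to 3.65 for 84285455, -3.66 to 1.70 for the window 35528334 and -1.20 to 6.29 for 50041328.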
